A study of Mus musculus with 4 samples.

Results

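Elastic fibre and microfibril genes were followed across injured and uninjured hindlimbs of mice with a deletion in the gene of the collagen receptor DDR2 and of their littermate controls. The 8 genes were taken by symbol from the 27998 genes of the deposited tables: Eln, Fbn1, Fbn2, Mfap4, Ltbp1, Fbln1, Fbln2 and Fbln5. Expression was measured by single-cell RNA sequencing of 3′ ends, in which each captured RNA molecule is counted once by its unique molecular identifier (UMI). The 4 groups were injured limbs of Ddr2 slie/slie mice, injured limbs of littermate controls, uninjured limbs of Ddr2 slie/slie mice and uninjured limbs of littermate controls. Slie is a spontaneous germline deletion in Ddr2, so every cell of the slie/slie mice carries it. Under isoflurane and buprenorphine, the left Achilles tendon of every mouse was cut and 30% of the body surface was burned on the back. The left injury site and the right limb were taken on day 7, so the uninjured limb also came from a burned mouse. Tissue of 2 mice was pooled per group into 1 library, and the sources used here do not give strain, age or sex.

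Elastic fibres give skin, vessels, tendon and muscle sheaths their recoil. They form when tropoelastin is deposited on a scaffold of fibrillin microfibrils, guided by fibulins and other microfibril-associated proteins, and is then crosslinked by lysyl oxidases. Microfibrils also hold latent TGF-β in the matrix through latent TGF-β binding proteins. In limb tissue these proteins are made mainly by fibroblasts, smooth muscle cells and endothelial cells, and DDR2 is a tyrosine kinase receptor for fibrillar collagen on mesenchymal cells.

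After removal of barcodes with fewer than 200 genes or more than 20% mitochondrial UMIs, 246 cells with 1010828 UMIs remained in the slie/slie injured library, 751 with 4032783 in control injured, 184 with 1097002 in slie/slie uninjured and 60 with 242888 in control uninjured. The control uninjured library therefore stood apart, with 60 of its 1075 barcodes kept, and no kept barcode was shared between libraries (0 of 1241). Over all barcodes Ddr2 had 0, 116, 2 and 5 UMIs in slie/slie injured, control injured, slie/slie uninjured and control uninjured. The sources used here do not say whether the counted 3′ end of Ddr2 lies in the deleted stretch. Cells were grouped by clustering without the 51 listed genes and named from markers. The fibroblast-like class held 88, 241, 75 and 5 cells in the same order of libraries, the pericyte or smooth muscle-like class 19, 54, 20 and 13, and the endothelial-like class 5, 26, 49 and 17. All 12 mesenchymal markers had UMIs in the fibroblast-like class of the first 3 of these libraries. In the same 3 libraries 4, 6 and 5 of 6 tenocyte markers had a UMI in this class, and together they stood at 503, 529 and 464 CPM (a gene's UMIs per 1000000 UMIs of all genes in the same cells). With 1 library per group there was no replicate and no test, and all intervals are 95% intervals for counting error only.

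The sum over all kept cells showed where the 8 genes stood in each limb. Eln, which encodes tropoelastin, had 36 UMIs in slie/slie injured, 142 in control injured, 114 in slie/slie uninjured and 28 in control uninjured, which is 35.6, 35.2, 104 and 115 CPM in that order of libraries. Both injured limbs were low and both uninjured limbs high, with intervals that did not overlap (24.9–49.3 CPM in slie/slie injured and 29.7–41.5 in control injured, against 85.7–125 in slie/slie uninjured and 76.6–167 in control uninjured). Fbn1, encoding fibrillin-1, the main building block of microfibrils, stood at 294 CPM in slie/slie injured, 343 in control injured, 179 in slie/slie uninjured and 173 in control uninjured. Fbn2, encoding fibrillin-2, which predominates in embryonic microfibrils, stood at 80.1 CPM in slie/slie injured, 102 in control injured, 4.56 in slie/slie uninjured and 37.1 in control uninjured. Both fibrillins were thus higher in the injured limbs. All 9 Fbn2 UMIs of the control uninjured library came from 1 cell, and 4 of the 5 in slie/slie uninjured came from 1 cell. Of the 42 Fbn1 UMIs of control uninjured, 34 came from 2 fibroblast-like cells.

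Mfap4, whose product binds tropoelastin and fibrillin-1, stood at 306 CPM in slie/slie injured, 165 in control injured, 306 in slie/slie uninjured and 12.4 in control uninjured. Ltbp1, encoding a latent TGF-β binding protein, stood at 20.8 CPM in slie/slie injured, 23.1 in control injured, 18.2 in slie/slie uninjured and 32.9 in control uninjured, and all 4 of its intervals overlapped. Mfap4 was low in 1 library only, which was the one with 5 fibroblast-like cells.

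The fibulins differed from each other. Fbln1, encoding fibulin-1 of elastic fibres and basement membranes, stood at 48.5 CPM in slie/slie injured, 46.1 in control injured, 222 in slie/slie uninjured and 8.23 in control uninjured, so that slie/slie uninjured was the high library. Fbln2, encoding the fibronectin- and tropoelastin-binding fibulin-2, stood at 345 CPM in slie/slie injured, 393 in control injured, 163 in slie/slie uninjured and 128 in control uninjured and was higher in both injured limbs. Fbln5, encoding fibulin-5, which brings tropoelastin and lysyl oxidase-like 1 to microfibrils, stood at 38.6 CPM in slie/slie injured, 82.8 in control injured, 75.7 in slie/slie uninjured and 115 in control uninjured. The slie/slie injured library was the lowest for Fbln5, and its interval (27.4–52.7 CPM) did not overlap any of the other 3.

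**Figure D1:**
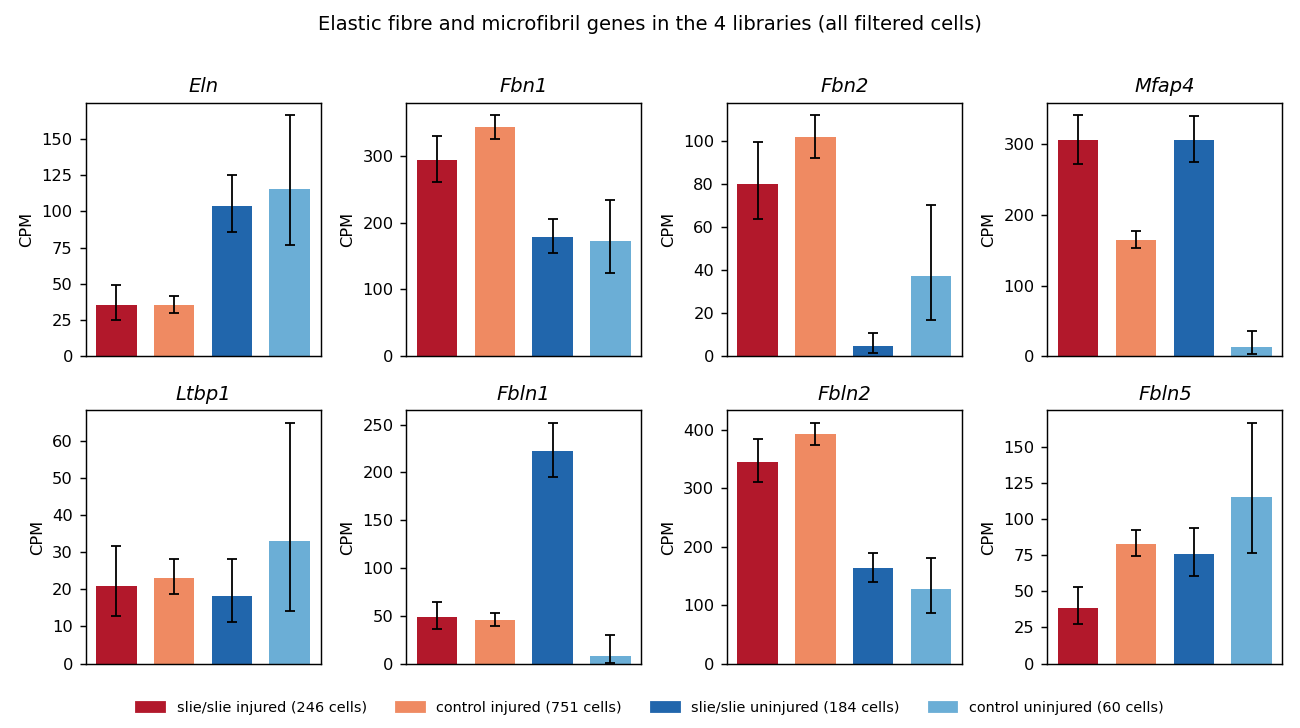
CPM of the 8 genes over all kept cells of the 4 libraries (bars, linear axes from 0), with 95% Poisson intervals for counting error. Eln is low in both injured libraries, Fbn2 is low in slie/slie uninjured at 4.56 CPM, and Mfap4 and Fbln1 are low in control uninjured at 12.4 and 8.23 CPM.

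Fibroblast-like cells held most of the UMIs of Mfap4, Fbln1, Fbn1 and Ltbp1 in the 3 libraries that had 20 or more such cells. Of the Mfap4 UMIs, 94.5% in slie/slie injured, 94.9% in control injured and 89.3% in slie/slie uninjured were theirs, and of the Fbln1 UMIs 73.5%, 80.6% and 95.9% in the same 3 libraries. Fbn1 (67.0%, 74.0% and 80.1%) and Ltbp1 (85.7%, 88.2% and 60.0%) were placed alike, in the same order of libraries. Fbn2 followed in the injured limbs, with 81.5% in slie/slie injured and 87.6% in control injured.

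Elastin, fibulin-2 and fibulin-5 UMIs were found outside the fibroblast-like class as well. Fibroblast-like cells held 50.0%, 51.4%, 67.5% and 0% of the Eln UMIs in slie/slie injured, control injured, slie/slie uninjured and control uninjured. They held 71.3%, 74.1%, 48.0% and 12.9% of the Fbln2 UMIs and 48.7%, 53.0%, 57.8% and 7.14% of the Fbln5 UMIs in that order of libraries. Pericyte or smooth muscle-like cells held 38.9%, 19.7%, 21.9% and 67.9% of the Eln UMIs in slie/slie injured, control injured, slie/slie uninjured and control uninjured. Endothelial-like cells held 38.5%, 38.3%, 32.5% and 78.6% of the Fbln5 UMIs in the same order of libraries. Endothelial-like cells also held 30.7% of the Fbln2 UMIs in slie/slie uninjured and 83.9% in control uninjured, where fibroblast-like cells were few. Cycling fibroblast-like cells, a separate class, held 27 of 349 Fbln2 UMIs in slie/slie injured and 245 of 1583 in control injured. In the injured limbs the fibroblast-like shares of Fbln2 were near those of Fbn1.

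Levels within the classes were set side by side for the same genes. In fibroblast-like cells Eln stood at 64.7 CPM in slie/slie injured, 68.4 in control injured and 157 in slie/slie uninjured. In pericyte or smooth muscle-like cells Eln stood at 128 CPM in slie/slie injured, 72.6 in control injured, 207 in slie/slie uninjured and 337 in control uninjured. The slie/slie injured value came from 2 of 19 cells. The top 3 cells held 89.3% of the Eln UMIs in control injured, 72.0% in slie/slie uninjured and 78.9% in control uninjured. Uninjured values of Eln were above the injured ones in slie/slie fibroblast-like cells and in pericyte or smooth muscle-like cells of both genotypes. The slie/slie intervals overlapped in pericyte or smooth muscle-like cells (70.0–215 in injured and 134–306 in uninjured limbs). The 5 fibroblast-like cells of control uninjured had 0 Eln UMIs, where a floor of 3 counts is 188 CPM.

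In endothelial-like cells Fbln5 stood at 236 CPM in control injured, 104 in slie/slie uninjured and 219 in control uninjured. The top 3 cells held 73.4%, 66.7% and 86.4% of these Fbln5 UMIs in that order. Fbln2 stood at 196 CPM in control injured, 212 in slie/slie uninjured and 259 in control uninjured. The 5 endothelial-like cells of slie/slie injured had 15 Fbln5 and 18 Fbln2 UMIs. No Fbn2, Mfap4 or Fbln1 UMI was found in the 26 endothelial-like cells of control injured. Of the 31 Mfap4 UMIs in endothelial-like cells of slie/slie uninjured, 96.8% were in 1 cell.

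Neutrophil-like cells, which should not express these genes, gave a background for shares of cells with a UMI. Fbn1 had a UMI in 1 of 42 such cells (2.38%) in slie/slie injured, against 4 of 147 (2.72%) in control injured, at median depths of 1664 and 1215 UMIs per cell. Fbn1 had a UMI in 28.4% of 88 fibroblast-like cells in slie/slie injured, against 49.0% of 241 in control injured, at median depths of 694.5 and 1349 UMIs. These shares were well above that background, but the libraries differed in depth and the shares are not compared between them.

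**Figure D2:**
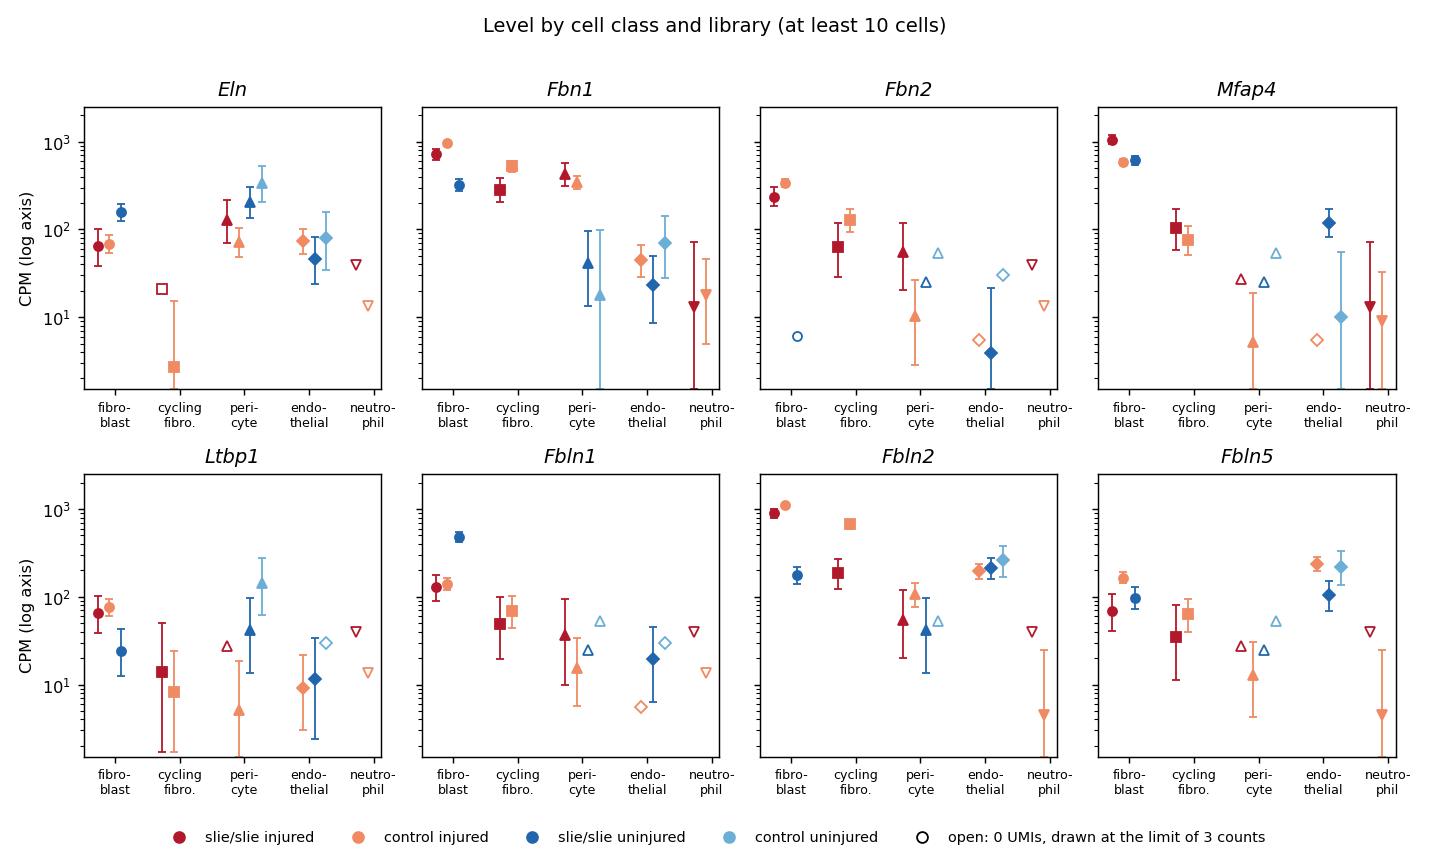
CPM of the 8 genes in fibroblast-like, cycling fibroblast-like, pericyte or smooth muscle-like, endothelial-like and neutrophil-like cells, by library where a class had 10 or more cells (log axis), with 95% Poisson intervals and with open markers at the limit of 3 counts where no UMI was found. Mfap4 is high in the fibroblast-like columns and Fbn2 in those of both injured limbs, and Fbln5 reaches 236 CPM in endothelial-like cells of control injured.

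The genes lie on 8 different chromosomes, and coordinates are given here for 7 of them on the mm10 build, from GENCODE. Eln is at chr5:134702593-134747323 and Fbn1 at chr2:125300594-125507993, both on the minus strand. Mfap4 (chr11:61485431-61488900) and Ltbp1 (chr17:75005568-75392512) are on the plus strand. Fbln1 (chr15:85205949-85286535) and Fbln2 (chr6:91212455-91272540) are on the plus strand and Fbln5 (chr12:101746565-101819055) is on the minus strand. Mfap4 overlaps Mapk7 on the opposite strand, which had 59 UMIs over all deposited barcodes.

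Of the 8 genes, 5 had a promoter entry in RefSeq. The 2 windows printed here, each of the 250 bases before the first listed start, belong to the genes with the lowest ratios in the fibroblast-like class, Fbln1 for injured over uninjured slie/slie limbs and Fbln5 for slie/slie over control injured limbs. Capitals mark GC boxes (GGGCGG) and CCAAT boxes on either strand. The positions are chr15:85205699-85205948 on the plus strand and chr12:101819120-101819369 on the minus strand of GRCm38.p6, read 5′ to 3′.
Fbln1: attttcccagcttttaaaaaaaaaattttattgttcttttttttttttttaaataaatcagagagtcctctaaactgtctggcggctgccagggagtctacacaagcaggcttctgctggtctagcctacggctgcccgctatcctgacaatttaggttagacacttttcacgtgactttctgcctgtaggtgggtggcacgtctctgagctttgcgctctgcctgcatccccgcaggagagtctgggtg
Fbln5: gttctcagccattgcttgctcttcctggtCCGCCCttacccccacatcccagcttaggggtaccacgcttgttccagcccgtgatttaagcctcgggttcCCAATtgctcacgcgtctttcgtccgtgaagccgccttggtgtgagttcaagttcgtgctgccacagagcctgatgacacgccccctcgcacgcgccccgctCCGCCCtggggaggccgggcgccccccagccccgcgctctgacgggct
The Fbln1 window had a GC content of 46.4% and none of 6 motifs searched on both strands (the GC box, the TATA box TATAAA, the CCAAT box, the AP-1 motif TGANTCA, the TEAD motif GGAATG and the cyclic AMP response element TGACGTCA). The Fbln5 window had a GC content of 65.2%, with 2 GC boxes and 1 CCAAT box. Over 32851 windows of the same length, 32.7% held a GC box and 33.8% a CCAAT box, against 12.4% with TATAAA, 12.6% with GGAATG, 6.75% with TGANTCA and 1.55% with TGACGTCA, and the median GC content was 52.4%. For Fbln1 a second start is listed whose window lies in an annotated exon (GC content 62.4%, with 1 GC box). For Fbln5 the bases after the start used were not found in a transcript. The matches are letters in a window and say nothing of binding.

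The first comparison asked how the elastic fibre genes stood in the injured limb of slie/slie mice. In slie/slie injured cells as a whole, Mfap4 was higher and Fbln5 lower than in control injured cells, and the other 6 genes lay within 1.5-fold. Mfap4 had 309 UMIs in slie/slie injured (306 CPM) and 665 in control injured (165 CPM), a 1.86-fold higher level (interval 1.62–2.13). Fbln5 had 39 UMIs in slie/slie injured (38.6 CPM) and 334 in control injured (82.8 CPM), a 2.10-fold lower level (1.51–2.99). The 2 genes thus went opposite ways. Folds are ratios of CPM after 1 count is added to each sum, and a gene is counted when it had at least 20 UMIs over both libraries and differed at least 1.5-fold.

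Against that count of 1 higher and 1 lower among 8, 13.8% of 11313 genes were higher and 13% lower by the same rule. The log2 ratios of the others were 0.05 for Eln, −0.22 for Fbn1, −0.33 for Fbn2, −0.10 for Ltbp1, 0.09 for Fbln1 and −0.18 for Fbln2. The intervals of Fbn1 (−0.40 to −0.04) and Fbln2 (−0.35 to −0.01) lay just below 0. Over all deposited barcodes 4 genes were lower (Fbn1, Fbn2, Fbln2 and Fbln5) and none was higher, with Mfap4 at a log2 ratio of 0.49. In that setting the median of all genes was itself −0.34. The share of all genes past 1.5-fold is not given for it, so that count is not read as a result about these genes. Over kept cells the median of the 8 genes was −0.14, against 0.04 for all genes. Fewer cells of a type and less RNA per cell cannot be told apart in these sums.

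The Mfap4 difference lay in few cells, and that of Fbln5 changed with depth and weighting. In slie/slie injured 1 cell held 52.4% of all Mfap4 UMIs, against 17.1% for the top cell of control injured. Without the 3 deepest cells of each library the Mfap4 log2 ratio was 0.08, against 0.89 with them. The Fbln5 log2 ratio was −0.80 without those cells, −0.52 with cells weighted equally and −0.03 with every cell thinned to 500 UMIs, against −1.07 as counted.

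Within fibroblast-like cells Mfap4 was again higher and Fbln5 again lower, and the other 6 genes lay within 1.5-fold. Mfap4 stood at 1049.7 CPM (292 UMIs) in the 88 slie/slie injured cells and 591 CPM (631 UMIs) in the 241 control injured cells, a 1.78-fold higher level (1.54–2.05). Fbln5 stood at 68.3 CPM (19 UMIs) in slie/slie injured and 166 CPM (177 UMIs) in control injured, a 2.32-fold lower level (1.46–3.89). By the same rule 16.8% of 7096 genes were higher and 14.6% lower in these cells.

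The fibrillins and fibulin-2 lay below control in these cells by less than 1.5-fold. Fbn1 stood at 715 CPM in slie/slie injured and 959 in control injured (log2 ratio −0.42, −0.64 to −0.20). Fbn2 stood at 237 CPM in slie/slie injured and 337 in control injured (−0.49, −0.89 to −0.11). Fbln2 stood at 895 CPM in slie/slie injured and 1098 in control injured (−0.29, −0.49 to −0.09). Cluster 2, a cluster of this class, gave 174976 of its 278178 UMIs in slie/slie injured, against 865459 of 1067972 in control injured. Within cluster 2 Fbn1 stood at 1052 CPM in slie/slie injured and 1138 in control injured, and Fbn2 at 337 and 399. Fbln2 stood there at 1234 and 1277 CPM in the same order, and each pair of intervals overlapped. The part of the cluster mix was not tested. In the whole class Eln, Fbln1 and Ltbp1 had log2 ratios of −0.02, −0.09 and −0.19, with intervals that included 0. The median of the 8 was −0.24, against 0.07 for all genes. Markers of other cell types differed in the same class: synovial lining markers summed to 144 CPM (2 of 4 present) in slie/slie injured, against 641 CPM (3 of 4) in control injured, and chondrocyte markers at 234 CPM (5 of 6) in slie/slie injured, against 636 CPM (5 of 6) in control injured. Pericyte or smooth muscle markers stood at 2639 CPM (10 of 11) in slie/slie injured, against 1616 CPM (11 of 11) in control injured, and the part of these markers was not tested.

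Depth per cell differed between these fibroblasts. The 3 deepest cells gave 45.8% of the fibroblast-like UMIs in slie/slie injured, against 12.8% in control injured. A single cell held 55.5% of the Mfap4 UMIs in slie/slie injured, against 18.1% in control injured, and without the 3 deepest cells the Mfap4 log2 ratio was 0.40. Mfap4 had a UMI in 42.0% of the slie/slie injured cells (37 of 88) and 40.2% of the control injured cells (97 of 241). At 500 UMIs per cell the shares were 25.9% (15 of 58) in slie/slie injured, against 17.0% (41 of 241) in control injured.

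Fbln5 had a UMI in 10.2% of slie/slie injured fibroblast-like cells (9 of 88) and in 25.3% of control injured ones (61 of 241). At 500 UMIs per cell it had one in 1 of 58 slie/slie injured cells (1.72%) and in 14 of 241 control injured cells (5.81%), which leaves too few UMIs to read a change. Its log2 ratio was −0.69 with cells weighted equally and −0.91 without the 3 deepest cells.

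Mfap4 was higher in slie/slie in both main fibroblast-like clusters of the injured limb, in many cells of cluster 0 and largely in 1 cell of cluster 2. In cluster 0, whose cells had a median of 778.5 UMIs and a median of 0.0871% mitochondrial UMIs, Mfap4 stood at 669 CPM (45 UMIs in 25 of 57 cells) in slie/slie injured, against 151 CPM (23 UMIs in 18 of 106 cells) in control injured. The level was 4.35-fold higher (2.60–7.46), and the top cell held 13.3% of the UMIs in slie/slie injured, against 8.70% in control injured. At 500 UMIs per cell the share of cluster 0 cells with a Mfap4 UMI was 31.6% (12 of 38) in slie/slie injured, against 7.55% (8 of 106) in control injured. Fbln2 was also higher in cluster 0, at 417 CPM (28 UMIs) in slie/slie injured and 144 CPM (22 UMIs) in control injured, or 2.86-fold (1.60–5.18). Fbn1, the remaining gene with enough UMIs there, had 6 UMIs in slie/slie injured and 26 in control injured (log2 ratio −0.76, −2.21 to 0.47). In this cluster 15.8% of 1664 genes were higher and 16.5% lower.

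In cluster 2, whose cells were deeper (median 4252.5 UMIs), Mfap4 stood at 1412 CPM in the 19 slie/slie injured cells and 692 CPM in the 107 control injured cells (log2 ratio 1.03, 0.81 to 1.25). Of its 247 UMIs in slie/slie injured 65.6% were in 1 cell. Without the 3 deepest cells the log2 ratio was −0.00, and with cells thinned it was −0.89. Fbln5 stood at 103 CPM in slie/slie injured and 195 CPM in control injured in this cluster (−0.86, −1.62 to −0.17), but at 0.47 with cells weighted equally. The background there was 16.9% of 6210 genes higher and 16.2% lower.

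Cycling fibroblast-like cells were kept apart because proliferation genes led their cluster. Fbln2 stood at 188 CPM (27 UMIs) in the 26 slie/slie injured cells and 671 CPM (245 UMIs) in the 65 control injured cells, a 3.46-fold lower level (2.34–5.32). Fbn1 stood at 285 CPM in slie/slie injured and 528 CPM in control injured (log2 ratio −0.86, −1.38 to −0.38). Fbn2 (−0.92, −2.07 to 0.08) and Fbln5 (−0.66, −2.24 to 0.67) were also past 1.5-fold lower, with intervals that included 0. That made 4 of 6 genes lower, against 21.1% of 3675 genes lower and 14.7% higher. The 3 deepest cells gave 65.9% of the UMIs in slie/slie injured and 49.2% in control injured. With cells thinned the log2 ratios of Fbn1, Fbn2 and Fbln5 were 0.41, 2.08 and 0.76, and that of Fbln5 was 0.36 with cells weighted equally. Fbln2 stayed 1.5-fold lower or more in each of its 4 alternatives (log2 −1.96 to −1.71). With cells thinned, Fbln2 had a UMI in 1 of 23 slie/slie injured cells and in 14 of 65 control injured cells, so that alternative rests on few UMIs. Markers of related cell types differed in these cells: tenocyte markers summed to 2070 CPM (6 of 6 present) in slie/slie injured, against 197 CPM (5 of 6) in control injured, and synovial lining markers at 792 CPM (2 of 4) in slie/slie injured, against 3829 CPM (2 of 4) in control injured. Mesenchymal markers stood at 22230 CPM in slie/slie injured, against 34233 CPM in control injured, with 12 of 12 present in both libraries. The part of these markers in the ratios was not tested.

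In pericyte or smooth muscle-like cells of the injured limbs 3 genes had enough UMIs. Fbn1 stood at 430.0 CPM (47 UMIs in 11 of 19 cells) in slie/slie injured, against 345 CPM (133 UMIs in 28 of 54 cells) in control injured (log2 ratio 0.34, −0.17 to 0.82). Eln had 14 UMIs in 2 slie/slie injured cells and 28 UMIs in 6 control injured cells (0.87, −0.14 to 1.81), and Fbln2 had 6 UMIs in slie/slie injured and 41 in control injured (−0.77, −2.17 to 0.40). Without the 3 deepest cells the Eln log2 ratio was −1.88 and that of Fbln2 1.71, and Fbln2 was at 1.00 with cells weighted equally and 0.45 with cells thinned. Fbn1 was at 1.80 without the 3 deepest cells, 1.09 with cells weighted equally and 1.43 with cells thinned. The intervals of all 3 as counted included 0, and 15.6% of 4059 genes were higher and 17.8% lower.

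**Figure D3:**
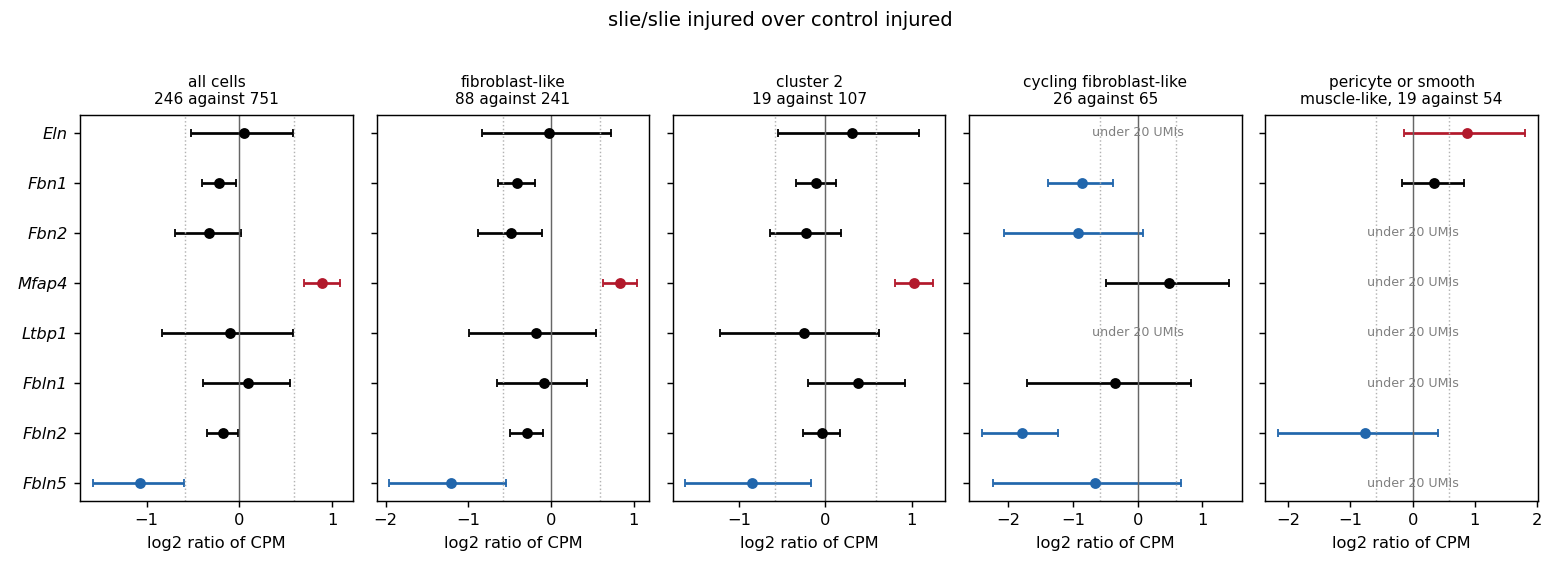
Log2 ratios of CPM, slie/slie over control, for the 8 genes in injured limbs, over all kept cells, fibroblast-like cells, cluster 2, cycling fibroblast-like cells and pericyte or smooth muscle-like cells, with 95% intervals for counting error, dotted lines at 1.5-fold and colour for genes past them (red higher, blue lower). Over all cells Mfap4 lies above the upper line at 0.89 and Fbln5 below the lower line at −1.07, and in cycling cells Fbln2 lies at −1.79.

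The second comparison set the genotypes side by side in uninjured limbs. Mfap4 had 336 UMIs (306 CPM) in the 184 slie/slie uninjured cells and 3 UMIs (12.4 CPM) in the 60 control uninjured cells. Fbln1 had 244 UMIs (222 CPM) in slie/slie uninjured and 2 UMIs (8.23 CPM) in control uninjured. The ratios were 18.7 for Mfap4 (7.22–68.9) and 18.1 for Fbln1 (6.12–88.3). Fibroblast-like cells, which held 89.3% of the Mfap4 and 95.9% of the Fbln1 UMIs in slie/slie uninjured, numbered 75 in slie/slie uninjured and 5 in control uninjured, and gave 44.8% of the UMIs in slie/slie uninjured and 6.58% in control uninjured. Their part in the ratios was not tested.

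Of the 7 genes with enough UMIs, 2 were higher and 2 lower, against 20.1% of 7490 genes higher and 20.8% lower. The lower ones were Fbln5 (83 UMIs in slie/slie uninjured, 28 in control uninjured, log2 ratio −0.64, −1.27 to 0.02) and Ltbp1 (20 slie/slie and 8 control UMIs, −0.95, −2.14 to 0.36). Eln (−0.19), Fbn1 (0.02) and Fbln2 (0.32) lay within 1.5-fold, and Fbn2 had too few UMIs. Of the 42 Fbn1 UMIs of control uninjured, 34 came from 2 cells. Over all deposited barcodes 4 genes were higher (Fbn1, Fbln1, Fbln2 and Mfap4) and none was lower. In that setting the median of all genes was itself 0.44, and the share of all genes past 1.5-fold is not given. With cells weighted equally the Fbln5 log2 ratio was 0.19. The Fbln1 log2 ratio was 2.30 over all deposited barcodes and 0.53 with cells thinned, against 4.18.

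Within fibroblast-like cells no genotype comparison was made for uninjured limbs. Fbln1 stood at 476 CPM (234 UMIs) in the 75 slie/slie uninjured cells, and the 5 control uninjured cells had 2 UMIs, or 125 CPM with an interval of 15.1–452. In endothelial-like cells Fbln5 stood at 104 CPM (27 UMIs in 10 of 49 cells) in slie/slie uninjured. It stood at 219 CPM (22 UMIs in 5 of 17 cells) in control uninjured, so that slie/slie was 2.12-fold lower (1.17–3.82). The top 3 cells held 66.7% of the slie/slie UMIs and 86.4% of the control ones. With cells thinned the Fbln5 log2 ratio was −0.08, and 16.6% of 2852 genes were higher and 18.3% lower. Eln was also past 1.5-fold lower in these cells (−0.84, −2.18 to 0.57), while Fbln2 was not (−0.32). Mfap4 had 31 UMIs in slie/slie uninjured and 1 in control uninjured (2.63, 0.66 to 5.74), nearly all from the single cell named above. Markers of other cell types were higher in the endothelial-like cells of slie/slie uninjured: tenocyte markers at 691 CPM (5 of 6 present), myofibre markers at 598 CPM (6 of 7) and Schwann or glial markers at 598 CPM (8 of 8), against 20.0 CPM (2 of 6), 29.9 CPM (2 of 7) and 140 CPM (3 of 8) in control uninjured. Their part was not tested. In pericyte or smooth muscle-like cells Eln had 25 UMIs in 20 slie/slie uninjured cells and 19 UMIs in 13 control uninjured cells (−0.72, −1.62 to 0.20), against 18.1% of 1480 genes higher and 14.6% lower.

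The third comparison set injured against uninjured limbs of slie/slie mice. Over all kept cells Fbn2, Fbln2 and Fbn1 were higher in the injured limb and Fbln1, Eln and Fbln5 lower. Fbn2 had 81 UMIs in slie/slie injured, against 5 in slie/slie uninjured, a 14.8-fold higher level (6.53–41.6). Fbln2 (349 injured and 179 uninjured UMIs) was 2.11-fold higher and Fbn1 (297 injured and 196 uninjured UMIs) 1.64-fold higher. Fbln1 (49 injured and 244 uninjured UMIs) was 4.51-fold lower, Eln (36 injured and 114 uninjured UMIs) 2.86-fold lower and Fbln5 (39 injured and 83 uninjured UMIs) 1.94-fold lower. Mfap4 (log2 ratio −0.00) and Ltbp1 (0.19) were within 1.5-fold. By the same rule 20% of 9221 genes were higher and 22.8% lower, against 3 and 3 of the 8. With cells thinned, the log2 ratio of Fbln1 was −0.27 and that of Fbln5 0.37. Cells under 0.5% mitochondrial UMIs numbered 152 of 246 in slie/slie injured, against 22 of 184 in slie/slie uninjured, and their part was not tested.

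In slie/slie fibroblast-like cells both fibrillin genes and Fbln2 were higher in the injured limb and Fbln1 and Eln lower. Fbn2 had 66 UMIs (237 CPM) in the 88 slie/slie injured cells, against 0 in the 75 slie/slie uninjured cells, where a count of 0 allows, by a floor of 3 counts, a share of up to 4% of cells with a UMI. Against a floor of 3 counts in the uninjured sum, Fbn2 was at least 38.8-fold higher. Fbln2 stood at 895 CPM in slie/slie injured, against 175 CPM in slie/slie uninjured, 5.07-fold higher (3.96–6.55). It stayed past 1.5-fold in each of 13 alternatives (log2 1.82 to 2.55), of which that without a minimum count leaves every ratio unchanged. Fbn1 stood at 715 CPM in slie/slie injured, against 319.7 CPM in slie/slie uninjured (log2 ratio 1.16, 0.85 to 1.47), or 0.46 with cells thinned. Ltbp1 had 18 UMIs in slie/slie injured, against 12 in slie/slie uninjured, or 64.7 CPM in slie/slie injured, against 24.4 in slie/slie uninjured (1.37, 0.27 to 2.51), or 0.37 with cells thinned.

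Fbln1 and Eln went the other way in these cells. Fbln1 stood at 129 CPM (36 UMIs) in slie/slie injured, against 476 CPM (234 UMIs) in slie/slie uninjured, 3.60-fold lower (2.54–5.24). Eln stood at 64.7 CPM (18 UMIs) in slie/slie injured, against 157 CPM (77 UMIs) in slie/slie uninjured, a log2 ratio of −1.22 (−2.02 to −0.48). Both stayed past 1.5-fold lower in each of 13 alternatives, with log2 ratios of −2.09 to −0.63 for Fbln1 and −1.63 to −0.81 for Eln. Of these alternatives, that without a minimum count leaves every ratio unchanged. With cells thinned, Eln had a UMI in 1 of 58 slie/slie injured cells and in 6 of 75 slie/slie uninjured cells. Fbln1 had one in 4 of 58 and 7 of 75, in the same order. The thinned alternative thus leaves too few UMIs of both genes to read a change at equal depth. Fbln5 lay within 1.5-fold (−0.47, −1.30 to 0.30). Mfap4 stood at 1049.7 CPM in slie/slie injured, against 611 CPM in slie/slie uninjured (0.78, 0.54 to 1.02), and its log2 ratio was 0.00 without the 3 deepest cells.

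That made 5 of 8 genes higher and 2 lower in fibroblast-like cells, against 26.8% of 5081 genes higher and 19.2% lower, with a median of 0.97 against 0.12 for all genes. The cells compared came from different clusters, mostly 0 and 2 in slie/slie injured, against 7 in slie/slie uninjured. Their median depth was 694.5 UMIs in slie/slie injured, against 5910 in slie/slie uninjured. Myofibre markers moved with the comparison, at 3.59 CPM with 1 of 7 markers present in slie/slie injured, against 1513 CPM with 7 of 7 in slie/slie uninjured, and their part was not tested. In pericyte or smooth muscle-like cells Fbn1 had 47 UMIs (430.0 CPM, 19 cells) in slie/slie injured, against 5 (41.5 CPM, 20 cells) in slie/slie uninjured, 8.83-fold higher (3.77–25.2), while Eln had 14 injured and 25 uninjured UMIs (−0.65, −1.67 to 0.32). In that class 24.8% of 1974 genes were higher and 24.4% lower.

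The fourth comparison set injured against uninjured limbs of littermate controls. Over all kept cells Mfap4, Fbln1, Fbln2, Fbn2 and Fbn1 were higher in the injured limb and Eln and Ltbp1 lower. Fbln2 had 1583 UMIs in control injured and 31 in control uninjured (2.98-fold higher, 2.10–4.37). Fbn1 had 1383 injured and 42 uninjured UMIs (1.94-fold higher, 1.43–2.69), and 34 of those 42 came from 2 fibroblast-like cells. Mfap4 had 665 injured and 3 uninjured UMIs (log2 ratio 3.33, 1.96 to 5.21), Fbln1 186 injured and 2 uninjured UMIs (1.91, 0.34 to 4.20) and Fbn2 411 injured and 9 uninjured UMIs (1.31, 0.42 to 2.38). Eln had 142 UMIs in control injured and 28 in control uninjured, 3.37-fold lower (2.18–5.05). Ltbp1 had 93 injured and 8 uninjured UMIs (−0.67, −1.65 to 0.50), and Fbln5 was within 1.5-fold (−0.52, −1.07 to 0.08).

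By the same rule 26% of 10959 genes were higher and 31.4% lower, against 5 and 2 of the 8 genes, and the median was 1.13 against −0.10 for all genes. Fibroblast-like cells numbered 241 in control injured and 5 in control uninjured and gave 26.5% of the UMIs in control injured and 6.58% in control uninjured. Cells under 0.5% mitochondrial UMIs numbered 379 of 751 in control injured, against 3 of 60 in control uninjured. The part of both differences was not tested. With cells thinned the log2 ratios of Fbn1, Fbln2 and Fbln1 were 0.42, 0.51 and −0.92. Those of Mfap4 (1.98 to 3.80) and Eln (−2.82 to −0.80) stayed past 1.5-fold in each of 11 alternatives. Of these alternatives, that without a minimum count leaves every ratio unchanged. With cells thinned, Mfap4 had a UMI in 44 of 751 control injured cells and in 0 of 53 control uninjured cells. Eln had one in 12 of 751 and 5 of 53, in the same order. The thinned alternative thus rests on few uninjured UMIs.

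Pericyte or smooth muscle-like cells allowed an injury comparison in control mice. Fbn1 had 133 UMIs (345 CPM, 28 of 54 cells) in control injured and 1 UMI (17.7 CPM, 1 of 13 cells) in control uninjured, a ratio of 9.80 (2.66–81.7). Eln stood at 72.6 CPM (28 UMIs in 6 of 54 cells) in control injured and 337 CPM (19 UMIs in 7 of 13 cells) in control uninjured. That was 4.72-fold lower in the injured limb (2.53–8.63). The top 3 cells held 89.3% of the injured and 78.9% of the uninjured Eln UMIs. Fbln2 had 41 UMIs in control injured and 0 in control uninjured, at least 2.00-fold higher against the floor of 3 counts. In these cells 33% of 3717 genes were higher and 23.6% lower.

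Fibroblast markers moved with injury in the pericyte or smooth muscle-like class of both genotypes. The 12 mesenchymal markers summed to 15032 CPM in slie/slie injured, 14908 in control injured, 1069.6 in slie/slie uninjured and 1366 in control uninjured, with 9, 11, 10 and 10 of them present. Pdgfra was at 0 in both uninjured limbs, Dpt, Pi16 and Cd34 in slie/slie injured and Cd34 in control injured. All 11 pericyte or smooth muscle markers were present in each library, at 30312, 16786, 34541 and 62156 CPM in the same order. The part of these markers in the Fbn1, Fbln2 and Eln ratios was not tested.

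In endothelial-like cells of control mice Fbln5 stood at 236 CPM (128 UMIs, 26 cells) in control injured. It stood at 219 CPM (22 UMIs, 17 cells) in control uninjured, a log2 ratio of 0.05 (−0.60 to 0.76). The top 3 cells held 73.4% of the injured and 86.4% of the uninjured UMIs. Eln (−0.25) and Fbln2 (−0.45) were also within 1.5-fold, and Fbn1 was past it (−0.79, −1.98 to 0.57). By the same rule 26.1% of 4786 genes were higher and 23% lower. Each library enters a genotype and an injury comparison, so the 4 comparisons are not independent.

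**Figure D4:**
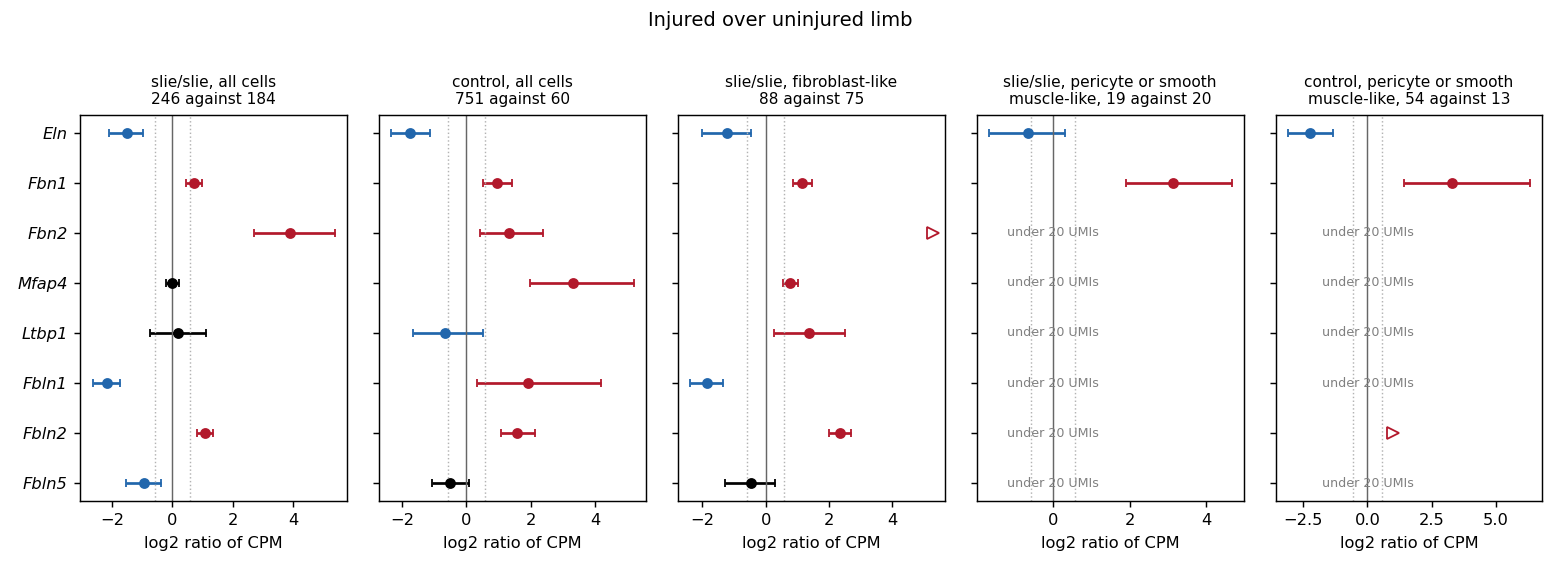
Log2 ratios of CPM, injured over uninjured, for the 8 genes over all kept cells of slie/slie and of control mice, in slie/slie fibroblast-like cells and in pericyte or smooth muscle-like cells of both, with 95% intervals, dotted lines at 1.5-fold, colour for genes past them (red higher, blue lower) and open arrowheads for bounds against a sum of 0. Over all cells Eln lies below 0 in slie/slie (−1.52) and control mice (−1.75) and Fbn1, Fbn2 and Fbln2 lie above 0. Fbln1 lies at −2.17 in slie/slie and at 1.91 in control mice, whose uninjured library had 2 Fbln1 UMIs in kept cells.

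Other genes of elastic fibre assembly were counted by list, beside the shares of all genes past 1.5-fold given above. In fibroblast-like cells of injured limbs, slie/slie over control, 2 of 10 measured microfibril and fibulin family genes (13 listed) were higher and 2 lower, against 16.8% of all genes higher and 14.6% lower, with a median log2 ratio of −0.08 against 0.07 for all genes. Mfap5, encoding a microfibril-associated glycoprotein, had 260 UMIs in slie/slie injured and 599 in control injured (0.74, 0.52 to 0.95), and Efemp1, encoding fibulin-3, 25 slie/slie and 29 control UMIs (1.73, 0.92 to 2.54). Of those 25 Efemp1 UMIs in slie/slie injured, 23 came from 1 cell. The proteoglycan gene Vcan had 110 slie/slie and 797 control UMIs (−0.91, −1.20 to −0.62) and Emilin2, encoding an elastic fibre interface protein, 1 slie/slie and 40 control UMIs (−2.42, −5.51 to −0.47). Of 8 measured crosslinking and assembly genes (11 listed) 0 were past 1.5-fold, with a median of −0.36. Lox, encoding lysyl oxidase, had 192 slie/slie and 990 control UMIs (−0.42, −0.65 to −0.20). Of 4 measured elastases 1 was lower (Mmp2, −0.70), and of 8 measured integrin subunits and TGF-β ligands 1 was lower (Itgb8, 3 slie/slie and 25 control UMIs, −0.76, −2.74 to 0.77).

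Over all kept cells of the injured limbs, 6 of 7 measured elastase genes (8 listed) were lower in slie/slie, against 13% of all genes, with a median of −1.75 against 0.04 for all genes. Mmp9, encoding gelatinase B, had 23 UMIs in slie/slie injured and 1031 in control injured, 10.8-fold lower. Mmp12, encoding macrophage elastase, had 0 slie/slie and 144 control UMIs, at least 12-fold lower. The cathepsin genes Ctsk (−2.20), Ctss (−1.75) and Ctsl (−1.18) were lower as well. Monocyte or macrophage-like cells numbered 16 of 246 in slie/slie injured, against 114 of 751 in control injured, and their part was not tested. Itgb8, an integrin subunit that releases TGF-β from its latent complex, was higher over all cells (37 slie/slie and 32 control UMIs, log2 ratio 2.20). Of these, 3 slie/slie and 25 control UMIs lay in fibroblast-like cells. Itgb8 was a leading gene of a Schwann or glial-like cluster with 1 slie/slie injured and 0 control injured cells, and the part of that cell was not tested.

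With injury in slie/slie fibroblast-like cells, 7 of 10 measured microfibril and fibulin family genes were higher and 1 lower, against 26.8% of all genes higher and 19.2% lower, with a median of 1.69 against 0.12 for all genes. Ltbp2 had 32 UMIs in slie/slie injured, against 1 in slie/slie uninjured (4.86, 2.90 to 7.97), Efemp2, encoding fibulin-4, 102 injured and 55 uninjured UMIs (1.70, 1.22 to 2.20) and Emilin1 48 injured and 10 uninjured UMIs (2.97, 2.01 to 4.07). Ltbp4, which aids elastin assembly, had 4 UMIs in slie/slie injured, against 90 in slie/slie uninjured, 10.3-fold lower (log2 ratio −3.37). Of 7 measured crosslinking and assembly genes 5 were higher and 2 lower. Lox had 192 injured and 46 uninjured UMIs (7.25-fold higher), and Loxl1, Loxl2, Loxl3 and Bmp1 had log2 ratios of 1.47, 1.20, 1.76 and 1.21. The lower ones were Adamts10 (5 injured and 16 uninjured UMIs) and Adamtsl4 (3 injured and 18 uninjured UMIs). Of 6 measured integrin and TGF-β genes 4 were higher, among them Itga5 (31 injured and 6 uninjured UMIs, 3.01) and Tgfb3 (30 injured and 18 uninjured UMIs, 1.53). Of 4 measured elastases Mmp14 was higher (2.04) and Ctsl lower (−1.34).

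The lists were also counted over all cells of control limbs, injured over uninjured. There 8 of 11 measured microfibril and fibulin family genes were higher and 2 lower (median 0.92). Of 9 crosslinking and assembly genes 6 were higher and 3 lower (1.22). Of 7 elastases 7 were higher (3.13), and of 10 integrin and TGF-β genes 5 were higher and 2 lower (0.63). The median of all genes was −0.10, and 26% of them were higher and 31.4% lower. Lox (2.83), Loxl1 (2.87) and Mfap2 (1.92) were among the higher ones and Ltbp4 (−2.45) among the lower. The lower crosslinking and assembly genes were Adamts10 (73 injured and 10 uninjured UMIs), Adamtsl4 (28 and 2) and Adamtsl5 (19 and 3). Uninjured limbs, slie/slie over control, had 6 of 10 microfibril and fibulin family genes higher. Of 8 crosslinking and assembly genes 5 were higher and 1 lower. Of 5 elastases 5 were higher, and of 9 integrin and TGF-β genes 2 were higher and 2 lower. The medians of these lists were 1.23, 0.73, 1.49 and 0.27 in that order, against −0.02 for all genes. Of all genes 20.1% were higher and 20.8% lower, beside the unequal fibroblast share given above.

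The genes with the most similar pattern were sought over 16 sums of UMIs, 1 for each class of at least 20 cells in a library, by Pearson correlation of log2(CPM + 10). Left out of the search were the 51 listed genes, genes under 100 UMIs and, among others, mitochondrial, ribosomal protein and hemoglobin genes. The members and the other listed elastic fibre genes could therefore not appear. The sums share libraries and depth, and the correlations are descriptions. Fbn1 followed the collagen genes Col5a2 (0.981) and Col6a2 (0.980), and Fbn2 followed Tnn, encoding tenascin-W (0.983), and Lrrc15 (0.967). Fbln1 followed Cxcl14 (0.927) and Pdgfra (0.910), Fbln2 Amotl2 (0.956) and Wipi1 (0.935), and Fbln5 Igfbp3 (0.955) and Eid2 (0.948). Mfap4 followed Fxyd6 (0.957) and Prrx2 (0.954), Eln Pear1 (0.941) and Sgce (0.937), and Ltbp1 Cpxm2 (0.889) and Pcsk5 (0.887).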

How the data were processed

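Per the file headers the authors counted the single-cell libraries of digested hindlimb tissue using Cell Ranger 5.0.1, and mm10 is the build per the submitters' processing notes. The deposited values are raw UMI counts per gene and barcode, whole numbers over 27998 genes. The sources used here do not say whether introns were counted.

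Barcodes under 200 genes or over 20% mitochondrial UMIs were removed, which left 1241 cells. Scrublet calls (2, 0, 4 and 14 in slie/slie injured, control injured, slie/slie uninjured and control uninjured) were kept. All libraries were clustered together with scanpy 1.11.5 and leidenalg 0.10.2 on 2000 variable genes without the 51 genes of 5 lists, with 30 components, 15 neighbours and resolution 1, which gave 18 clusters. Markers of 21 classes named all but 1. UMIs were summed per library and class. With 1 library per group no test was possible: levels are CPM with exact Poisson intervals, shares have exact Clopper-Pearson intervals, and ratios were taken after adding 1 count to each sum, with exact conditional binomial intervals (numpy 2.4.6, scipy 1.17.1, Python 3.11.15, matplotlib 3.10.9). The ratio code was tested on simulated data. Intervals cover counting error only, with a floor of 3 counts for sums and shares of 0. Named were the 8 members, list genes reaching 20 UMIs over a pair of libraries, and the 2 genes closest in pattern to each member. Genes, lists and markers were chosen with earlier results of these data known. Promoter windows are from RefSeq.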

Additional observations from a re-analysis of the deposited data

Results flagged for a closer look

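Fbln1 appeared among barcodes left out of the comparisons. The 1015 left-out barcodes of the control uninjured library held 16 Fbln1 UMIs in 14 barcodes, or 47.5 CPM (27.1–77.1), against 2 UMIs, or 8.23 CPM, in the kept cells of the same library. The ratios of Fbln1 against that library therefore rest on 2 UMIs where 16 more lay in barcodes with few genes or many mitochondrial UMIs.

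Over kept cells as counted, Fbln1 also had opposite signs with injury in the 2 genotypes. Its log2 ratio, injured over uninjured, was −2.17 in slie/slie mice (49 injured and 244 uninjured UMIs) and 1.91 in control mice (186 injured and 2 uninjured UMIs). With every cell thinned to 500 UMIs the ratios of both genotypes were negative. Over all deposited barcodes control mice had 191 Fbln1 UMIs of 4515174 in injured and 18 of 579790 in uninjured limbs. Fibroblast-like cells numbered 241 in control injured and 5 in control uninjured. The difference between the genotypes was not tested.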

How the results depend on the processing

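No paired analysis was possible because each group had 1 library, and for the same reason no library could be left out. Alternatives changed the cell filter, clustering, fold, minimum count, denominator, cell weighting, depth or the inclusion of deep cells. Those within single classes or clusters, and for slie/slie fibroblast-like cells with injury, were chosen after seeing the data. Of 673 member values under alternatives 549 lay within the counting interval of the main value. Another 104 lay outside it (moved), and 20 changed sign from a main value past 1.5-fold (reversed). A value within the interval can still differ in sign or size where the interval is wide or includes 0. The alternative without a minimum count leaves every ratio unchanged and is among the 673. Of 480 levels by class 451 lay within their interval. Of 57 medians 53 lay within the medians of the members' bounds.

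The medians that moved were those of injured limbs by genotype over all barcodes (−0.54), of uninjured limbs by genotype over all barcodes (0.66) and without the 3 deepest cells (−0.49), and of slie/slie injury with thinned cells (0.97). Using all barcodes moved the median of all genes to −0.34, 0.44 and 0.63 for injured genotype, uninjured genotype and control injury. With cells weighted equally, reversed log2 ratios were Fbln5 by genotype in uninjured limbs (0.19), in cycling cells (0.36) and in cluster 2 (0.47), Fbln2 in pericyte or smooth muscle-like cells by genotype (1.00) and Mfap4 in uninjured endothelial-like cells (−1.26). Without the 3 deepest cells they were Eln (−1.88) and Fbln2 (1.71) in injured pericyte or smooth muscle-like cells, Mfap4 in uninjured endothelial-like cells (−2.46) and Mfap4 in cluster 2 (−0.00135). With thinned cells they were Fbln5 (0.37) for slie/slie injury, Fbln1 (−0.92) for control injury, Fbln2 (0.45, by genotype) and, for slie/slie injury, Eln (0.23) in pericyte or smooth muscle-like cells, Mfap4 (−0.61) in uninjured endothelial-like cells, Fbn1 (0.41), Fbn2 (2.08) and Fbln5 (0.76) in cycling cells, and Fbln5 (0.76) and Mfap4 (−0.89) in cluster 2. Over all barcodes Ltbp1 with control injury was 0.27. The cause was not tested for any of these.

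Counts of members past the fold moved by over 1.5 times in 12 of 76 alternatives. In injured limbs by genotype 2 became 1 at a 2-fold limit, 4 (all lower) over all barcodes, 1 with equal weights and 1 without the 3 deepest cells, and in fibroblast-like cells 2 became 1 at 2-fold, 4 with at least 500 genes per cell and 1 when thinned. In uninjured limbs 4 became 2 at 2-fold and 0 when thinned. With injury, thinning gave 3 in place of 6 in slie/slie, 4 in place of 7 in control and 2 in place of 7 in slie/slie fibroblast-like cells, with fewer genes at 20 UMIs.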

Other observations

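Over all kept cells of the injured limbs 3 other assembly genes with few UMIs were past 1.5-fold lower in slie/slie than in control mice. They were Adamts10 (11 slie/slie and 73 control UMIs, log2 ratio −0.63), Adamts6 (3 slie/slie and 33 control UMIs, −1.09) and Adamtsl5 (2 slie/slie and 19 control UMIs, −0.74), which belong to a family of secreted proteases and related proteins found at microfibrils, and the intervals of all 3 included 0. In pericyte or smooth muscle-like cells of control mice Loxl2, a lysyl oxidase, had 103 UMIs in control injured and 1 in control uninjured (2.93, 1.04 to 5.99), and Mmp14, a membrane-bound matrix protease, 195 injured and 2 uninjured UMIs (3.26, 1.69 to 5.55). A single Schwann or glial-like cell of the slie/slie injured library held 47 Fbln2 UMIs, which was 13.5% of that library's 349.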
